A study of Mus musculus with 40 samples.

Results

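The enzymes and transporters of glycolysis, together with genes that respond to low oxygen, were followed as a set of 32 genes across all the mRNA libraries of the series, out of 55536 genes in the count tables. The set was given as a list of gene symbols, and each symbol was matched to its row through the GENCODE M21 annotation. By role it held 4 transporters of glucose and lactate, 6 enzymes of upper glycolysis, 2 bifunctional enzymes that set the level of a sugar phosphate activating phosphofructokinase, 9 enzymes of lower glycolysis, 4 enzymes at the exit of the pathway towards lactate or the mitochondrion, and 7 genes of the hypoxia response. The symbol *Aldoa* belonged to 2 identifiers. ENSMUSG00000030695, which has the longer exons, was used, and the other held only 58 to 133 reads per library.

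The cells were mouse embryonic stem cells (mESCs), grown with serum and LIF on gelatin. They were WT (2 biological replicates, WT 1 and WT 2), *Ccnc* KO (clones D1, G2 and H5) or *Cdk8* KO, with B9, H4 and C8 as clones. A KO clone was an independent line that had lost *Ccnc*, the gene of Cyclin C, or *Cdk8*, the gene of cyclin-dependent kinase 8, and what is particular to a clone comes with its edit. Before collection, every line was held for 4 h with DMSO or with AZD6738 at 900 nM, which inhibits the checkpoint kinase ATR (ATRi). The WT libraries were sequenced in both of 2 multiplexes, once beside *Ccnc* KO and once beside *Cdk8* KO, with 10 libraries in each, so both KO comparisons rest on the same WT libraries.

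Glycolysis splits glucose into pyruvate in the cytosol and yields ATP without oxygen, and lactate dehydrogenase and the monocarboxylate transporters carry the surplus out of the cell as lactate. When oxygen is low, the HIF transcription factors bind short DNA elements near many of these genes and raise them, while pyruvate dehydrogenase kinases hold carbon back from the mitochondrion. Serum-grown mESCs are known for a high rate of glycolysis. The CDK8 kinase module, to which Cyclin C and CDK8 belong, joins the Mediator complex reversibly and is known from work in other cells to take part in HIF-driven transcription.

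Library totals lay between 30899823 and 67274049 reads, and the lowest count of any member in any library was 84. *Ccnc* transcripts fell from 39.6 to 45.1 CPM (counts scaled to library size by TMM) in the WT libraries of its multiplex to 4.24 to 7.40 CPM in its KO clones. *Cdk8* transcripts in its KO clones stood at 52.3 to 64.6 CPM against 57.7 to 78.6 CPM in WT, so a reading of the whole gene separates these clones from WT only in part. The ATRi library of WT 2 stood apart. It held *Gapdh* at 528 CPM where the other WT libraries of the *Ccnc* multiplex held 246 to 276. It was left out of the tests, except where all WT libraries are named. Sequencing the same WT library again in the other multiplex moved the members' log2 CPM by at most 0.39 (*Ankrd37*), with a median of 0.071 for the largest shift of each member. Of 10 stem cell markers all were present, with a summed level of 5553.7 to 6018 CPM in WT libraries, 5022 to 5644 CPM in *Ccnc* KO and 4150 to 5423 CPM in *Cdk8* KO. The summed level of 8 primitive endoderm markers was 17.8 to 31.9 CPM in WT, 63.0 to 106 CPM in *Ccnc* KO and 84.1 to 196 CPM in *Cdk8* KO, and that of 7 fibroblast markers stayed at or below 23.2 CPM in every library, with *Lum* at 0 in all WT and *Ccnc* KO libraries. By the test used for the members, 7 and 8 of the 8 primitive endoderm markers rose in *Ccnc* KO and *Cdk8* KO, 4 and 2 of the stem cell markers fell, 3 of 6 trophoblast markers rose and 3 of 4 neuroectoderm markers fell in *Ccnc* KO, and 0 fibroblast markers were called. With clone as a random effect (limma voom), the counts for *Ccnc* KO and *Cdk8* KO were 7 and 5 for the primitive endoderm markers and 4 and 0 for the stem cell markers, and in *Ccnc* KO 2 trophoblast and 3 neuroectoderm markers were called. The part of these markers in the KO results that follow was not tested. In such bulk RNA, fewer cells of a type and less RNA per cell cannot be told apart.

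The levels of the 32 members spanned 435 RPKM for *Aldoa* to 0.824 RPKM for *Pfkfb4*. Levels between genes were compared as RPKM (reads scaled to library size and to the merged length of all annotated exons), in WT cells under DMSO in the *Ccnc* multiplex. *Aldoa*, the main aldolase, stood first at 435 ± 14.4 RPKM (SD, n = 2), followed by *Pkm* (pyruvate kinase) at 351 ± 25.2 RPKM and *Ldha* (lactate dehydrogenase A) at 248 ± 25.0 RPKM. *Slc2a3* (the glucose transporter GLUT3) came next at 187 ± 5.66 RPKM. In all, 7 of the 32 members stood above 100 RPKM. At the other end, *Eno2* (the enolase typical of neurons) stood at 1.15 ± 0.0445 RPKM and *Pfkfb4* at 0.824 ± 0.123 RPKM, and 6 members were under 5 RPKM. These 6 were *Pfkfb3*, *Pfkfb4*, *Eno2* and the hypoxia-response genes *Egln3*, *Ankrd37* and *Ndrg1*.

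Where 2 genes encode the same enzyme or transporter, one of them was ahead in every library for most pairs. The ratio of *Aldoa* to *Aldoc* RPKM was 69.6 to 99.2 over the 20 libraries, and that of *Eno1* to *Eno2* was 78.5 to 136. *Hk2*, the inducible hexokinase, exceeded *Hk1* by 5.70 to 10.3 times. *Pfkl* was ahead of both other phosphofructokinase genes in 20 of 20 libraries, by 3.01 to 5.67 times over *Pfkp* and 2.93 to 4.24 times over *Pfkm*. The excess of *Ldha* over *Ldhb* was smaller, 1.65 to 2.30 times. By this measure, only in the pairs *Pfkp* with *Pfkm* and *Pdk1* with *Pdk3* did the order depend on the library. The merged exon length was 13401 bases for *Pfkp* and 7779 for *Pdk1*, where their longest coding transcripts had 4145 and 5185. The order in these pairs therefore also depends on the length used. *Pdk1* RPKM was 1.44 to 1.57 times that of *Pdk3* in WT under DMSO, but over all libraries the ratio ran from 0.814 to 1.61, with *Pdk1* ahead in 15 of 20.

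Some members cannot be counted cleanly, because mammalian genomes carry many retrocopies of glycolytic mRNAs. Of the 50-base words in the longest coding transcript of *Gapdh*, 82.5% were found unchanged in transcripts of 222 other genes, of which 213 were pseudogenes. The share was 72.2% for *Eno1*, 68.0% for *Pgk1*, 62.45% for *Bnip3*, 41.5% for *Pgam1* and 34.4% for *Pkm*. It was over 10% in 13 of the 32 members, among them *Ldhb* (27.0%), *Gpi1* (25.3%) and *Aldoa* (13.5%), which are called in the KO comparisons below. It was 0% in *Slc16a3*, *Hk2*, *Pdk1*, *Aldoc* and *Egln3*. Values of the members with large shares are uncertain, since reads from shared stretches can be dropped or split between genes before counting.

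**Figure D1:**
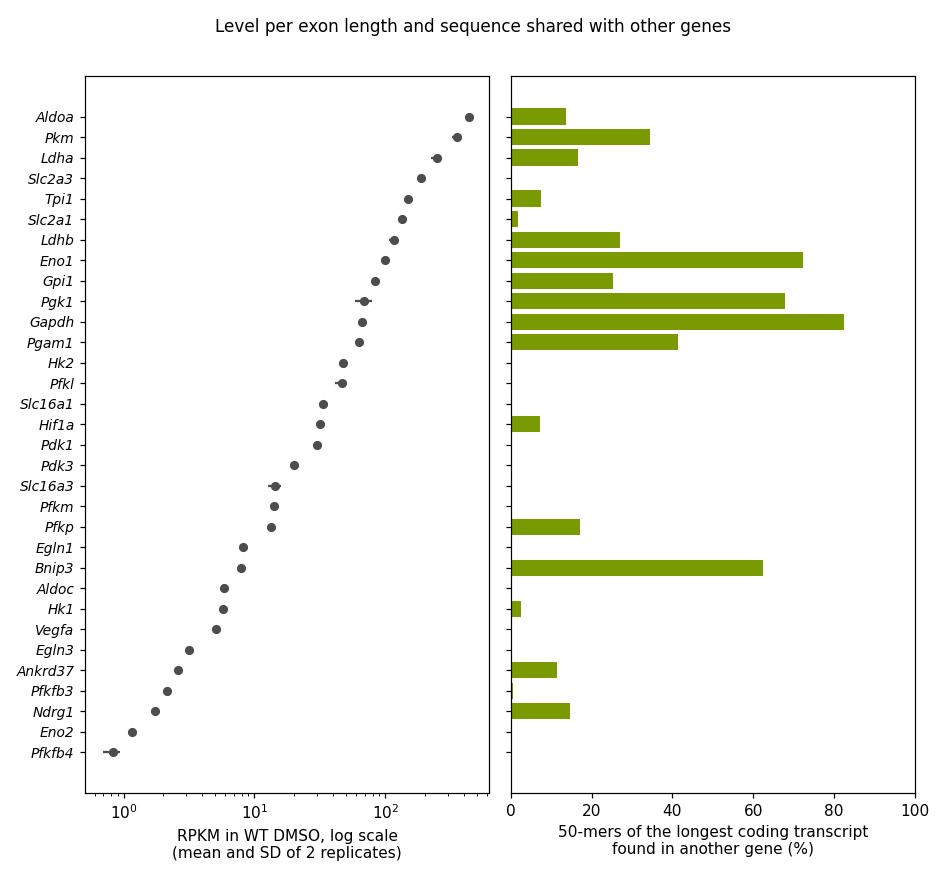
Left, level of each of the 32 members per exon length (RPKM, log scale) in WT mESCs under DMSO in the *Ccnc* multiplex, as mean and SD of 2 replicates. Right, percentage of 50-base words of the longest coding transcript that occur in a transcript of another gene, from 0% for *Slc16a3* and *Hk2* to 82.5% for *Gapdh*.

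HIF binds the letters ACGTG or GCGTG in DNA. Windows are shown here for some members called in the KO or ATRi comparisons, each of them with a match. RefSeq promoters of GRCm38.p6 were at hand for 30 of the 32 members, all but *Slc2a3* and *Ndrg1*. Both motifs were searched on both strands in the 250 bases before the start site nearest to the annotated gene start, and the palindrome CACGTG counts once on each strand. At least 1 match was found in 23 of the 30 members (76.7%), against 12679 of all 32851 promoter windows (38.6%). The motifs contain CG, and the members' windows held a median of 14 CG dinucleotides against 6 in all windows. The windows below are from *Slc16a3* (chr11:120948817-120949066, plus strand), *Hk2* (chr6:82774455-82774704, minus strand), *Pdk1* (chr2:71872974-71873223, plus strand), *Bnip3* (chr7:138909507-138909756, minus strand) and *Egln3* (chr12:54203875-54204124, minus strand), each 5′ to 3′ on the strand of the gene, with matches in capitals.
Slc16a3: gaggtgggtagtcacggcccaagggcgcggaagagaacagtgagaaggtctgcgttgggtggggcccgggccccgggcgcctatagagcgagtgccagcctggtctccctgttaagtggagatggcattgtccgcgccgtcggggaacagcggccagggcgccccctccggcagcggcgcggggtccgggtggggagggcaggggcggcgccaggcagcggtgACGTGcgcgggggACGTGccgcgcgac
Hk2: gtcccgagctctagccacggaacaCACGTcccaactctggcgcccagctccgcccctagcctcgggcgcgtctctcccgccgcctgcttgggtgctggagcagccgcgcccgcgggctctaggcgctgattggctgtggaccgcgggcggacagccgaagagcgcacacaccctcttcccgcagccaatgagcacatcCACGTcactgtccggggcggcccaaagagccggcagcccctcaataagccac
Pdk1: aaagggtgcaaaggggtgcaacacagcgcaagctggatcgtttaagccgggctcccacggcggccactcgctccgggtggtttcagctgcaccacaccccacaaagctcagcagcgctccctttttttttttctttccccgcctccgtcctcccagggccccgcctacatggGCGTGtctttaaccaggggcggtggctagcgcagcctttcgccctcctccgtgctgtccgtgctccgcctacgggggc
Bnip3: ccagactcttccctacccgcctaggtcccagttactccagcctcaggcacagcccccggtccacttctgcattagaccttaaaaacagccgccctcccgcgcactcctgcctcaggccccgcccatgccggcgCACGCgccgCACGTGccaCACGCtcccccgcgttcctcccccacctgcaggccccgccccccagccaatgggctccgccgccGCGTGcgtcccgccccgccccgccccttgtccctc
Egln3: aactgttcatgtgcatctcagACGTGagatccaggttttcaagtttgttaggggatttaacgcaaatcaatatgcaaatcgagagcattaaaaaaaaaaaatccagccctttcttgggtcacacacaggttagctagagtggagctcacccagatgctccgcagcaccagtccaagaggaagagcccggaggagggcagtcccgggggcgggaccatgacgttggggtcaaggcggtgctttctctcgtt
*Slc16a3* and *Hk2* held 2 matches each, all of them to ACGTG, *Pdk1* and *Egln3* held 1 each, and *Bnip3* held 5. The windows of *Vegfa*, *Eno2*, *Aldoa*, *Tpi1* and *Gpi1* held none, which says only that these letters are not in those windows. That of *Aldoa* held 0 CG dinucleotides, so neither motif could occur in it. *Aldoc* and *Ldhb*, also called between genotypes, held 1 match each, and *Pfkm* held 2. *Ldha* held 5 matches, as many as *Bnip3*.

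In the *Ccnc* KO and the *Cdk8* KO clones, a handful of glycolytic genes differed from WT by less than 2-fold. Aldolase, triosephosphate isomerase and the lactate exporter were higher, and hexokinase and a pyruvate dehydrogenase kinase were lower. The calls depended on the fit and on single lines, above all in *Cdk8* KO. The comparison set all KO libraries of a multiplex against its WT libraries, beside treatment. At an adjusted p under 0.05 (edgeR quasi-likelihood test, adjusted over all genes), 9 of the 32 members were called in *Ccnc* KO, 7 of them raised, where 12.3% of the 18577 genes tested were called. In *Cdk8* KO, 6 were called, 4 of them raised, where 4.31% of 18721 genes were called. *Slc16a3*, *Aldoa*, *Aldoc*, *Tpi1*, *Hk2* and *Pdk1* were called in both comparisons, each in the same direction, and *Gpi1*, *Pfkm* and *Ldhb* in *Ccnc* KO. The median log2 fold change of the 32 members was 0.16 in *Ccnc* KO and 0.14 in *Cdk8* KO, where the median of all genes was 0.0032 and 0.0086. None passed a 2-fold threshold in addition, which 1.94% and 1.05% of genes did. In this fit the DMSO and ATRi libraries of a line count as independent. With clone as a random effect (limma voom), 8 and 4 members were called (10.1% and 1.27% of genes). With DMSO libraries alone, 5 members and 635 of 17067 genes were called in *Ccnc* KO, and 0 members and 5 of 16904 genes in *Cdk8* KO. Under DMSO, 10 members lay above both WT libraries in every *Ccnc* KO clone and 6 below (17.6% and 19% of genes), and 15 lay above and 3 below in every *Cdk8* KO clone (16.1% and 14.5% of genes). All 32 members passed the filter on low counts in both multiplexes.

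**Figure D2:**
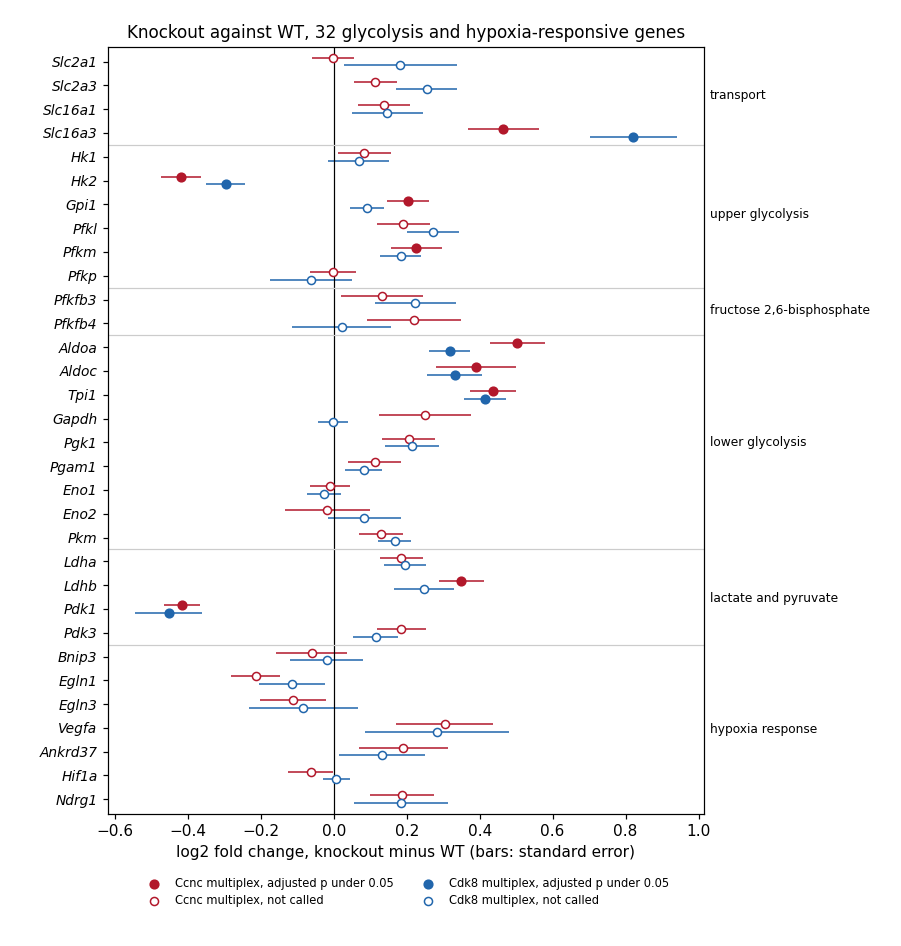
Log2 fold change of each member between KO and WT libraries (x axis), with bars of 1 standard error, in the *Ccnc* multiplex (red) and the *Cdk8* multiplex (blue), ordered by role. Filled points passed an adjusted p of 0.05, and they run from -0.45 for *Pdk1* to 0.82 for *Slc16a3*, both in *Cdk8* KO.

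Among the transporters only *Slc16a3* was called. It encodes MCT4, a monocarboxylate transporter known for lactate export from glycolytic cells. In the *Ccnc* multiplex, WT libraries held 82.6 and 69.7 CPM under DMSO and 56.1 CPM under ATRi, and clones D1, G2 and H5 held 94.2, 108 and 103 CPM under DMSO and 96.0, 67.4 and 79.8 CPM under ATRi. In the *Cdk8* multiplex, WT libraries held 79.6 and 67.7 CPM under DMSO and 53.1 CPM under ATRi, and clones B9, H4 and C8 held 112, 150 and 129 CPM under DMSO and 78.3, 109 and 94.5 CPM under ATRi. Within each treatment every KO clone was above every WT library in use, with H4 highest among the *Cdk8* KO clones in both treatments. The fold was 1.38 in *Ccnc* KO (log2 0.46 ± 0.096 SE, adjusted p = 0.0054) and 1.77 in *Cdk8* KO (log2 0.82 ± 0.12 SE, adjusted p = 0.0066). Per merged exon length, *Slc16a1*, which encodes the more widely expressed MCT1, stayed ahead of *Slc16a3* in 20 of 20 libraries, by 2.26 to 2.43 times in WT under DMSO and by 1.203 times in the library with the smallest gap. In H4 under DMSO both genes held 150 CPM. The merged length of *Slc16a3* was 5318 bases where its longest coding transcript had 4335, so the order in that library depends on the length used. *Slc16a1* itself was at log2 0.14 ± 0.072 SE and 0.15 ± 0.097 SE and was not called.

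The glucose transporters *Slc2a1* (GLUT1) and *Slc2a3* (GLUT3) were not called in either KO, with log2 values from -0.0026 to 0.25. Clone H4 differed here from the other *Cdk8* KO clones. It held *Slc2a1* at 625 CPM under DMSO and 615 CPM under ATRi, where B9 and C8 held 394 to 447 CPM and the WT libraries in use 398 to 461 CPM. H4 also had the highest *Slc2a3* and the lowest *Pfkp* of the 3 clones, with *Pfkp* at 147 CPM under DMSO against 204 CPM in B9 and 195 CPM in C8.

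In upper glycolysis the hexokinase gene *Hk2*, which traps glucose in the cell as its phosphate, fell in both KOs. Under DMSO, WT held 290 and 278 CPM in the *Ccnc* multiplex and clones D1, G2 and H5 held 192, 209 and 225 CPM. Under ATRi, WT 1 held 295 CPM and these clones 231, 223 and 222 CPM. In the other multiplex, WT held 290 and 277 CPM under DMSO and 293 CPM under ATRi, and clones B9, H4 and C8 held 246, 219 and 238 CPM and then 219, 229 and 250 CPM. Every KO library of either multiplex lay below every WT library in use, as did 6.92% and 6.07% of genes. The fold was 0.748 in *Ccnc* KO (log2 -0.42 ± 0.056 SE, adjusted p = 0.00025) and 0.814 in *Cdk8* KO (log2 -0.30 ± 0.054 SE, adjusted p = 0.017). The call in *Cdk8* KO was lost with clone as a random effect (adjusted p = 0.093, limma) and with all WT libraries included (adjusted p = 0.14). The ATRi library of WT 2, which was not used, held 223 and 221 CPM in the 2 multiplexes, within the range of the KO clones.

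None of the other enzymes of upper glycolysis was called as lowered, although *Pfkp* stood at log2 -0.0021 in *Ccnc* KO and -0.062 in *Cdk8* KO. *Gpi1*, which turns glucose phosphate into fructose phosphate, held 530 and 552 CPM in WT under DMSO and 512 CPM under ATRi in the *Ccnc* multiplex, and 668, 625 and 582 CPM and then 624, 569 and 551 CPM in D1, G2 and H5. It rose 1.15-fold in *Ccnc* KO (log2 0.20 ± 0.058 SE, adjusted p = 0.034), and stood at log2 0.091 ± 0.047 SE in *Cdk8* KO. *Pfkm*, the muscle-type phosphofructokinase, held 44.8 and 48.9 CPM in WT under DMSO and 38.3 CPM under ATRi, and 47.5, 55.2 and 56.5 CPM and then 47.9, 43.99 and 48.1 CPM in the *Ccnc* KO clones, whose DMSO range overlapped that of WT. It rose 1.17-fold (log2 0.23 ± 0.070 SE, adjusted p = 0.048), a call that was lost with clone as a block (adjusted p = 0.073, limma). The liver type *Pfkl*, the most abundant of the 3, was at log2 0.19 ± 0.074 SE in *Ccnc* KO and 0.27 ± 0.072 SE in *Cdk8* KO (adjusted p = 0.065) and was not called. *Hk1*, *Pfkp* and the bifunctional *Pfkfb3* and *Pfkfb4* were not called either, with log2 values from -0.062 to 0.22.

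In lower glycolysis, the 3 genes of the steps just below phosphofructokinase rose together. Aldolase cleaves the fructose bisphosphate and triosephosphate isomerase interconverts its products. *Aldoa* held 1296 and 1237 CPM in WT under DMSO and 1205 CPM under ATRi in the *Ccnc* multiplex, and 2014, 1774 and 1644 CPM and then 1889, 1527 and 1604 CPM in D1, G2 and H5. Beside *Cdk8* KO, it held 1273, 1194 and 1176 CPM in the corresponding WT libraries, and 1644, 1465 and 1497 CPM and then 1578, 1413 and 1422 CPM in B9, H4 and C8. Every KO library exceeded every WT library in use, as did 7.53% and 6.59% of genes. The fold was 1.42 in *Ccnc* KO (log2 0.50 ± 0.075 SE, adjusted p = 0.00057) and 1.25 in *Cdk8* KO (log2 0.32 ± 0.056 SE, adjusted p = 0.015).

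*Tpi1*, the isomerase, separated in the same way. WT held 422 and 398 CPM under DMSO and 389 CPM under ATRi in the *Ccnc* multiplex, and D1, G2 and H5 held 581, 538 and 538 CPM and then 578, 478 and 522 CPM. In the *Cdk8* multiplex WT held 415, 388 and 384 CPM, and B9, H4 and C8 held 520, 560 and 575 CPM and then 455, 520 and 490 CPM. No KO library overlapped a WT library, and the fold was 1.35 in *Ccnc* KO (log2 0.44 ± 0.062 SE, adjusted p = 0.00042) and 1.33 in *Cdk8* KO (log2 0.41 ± 0.057 SE, adjusted p = 0.0056).

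*Aldoc*, the scarce brain-type aldolase, rose to a similar degree from a far lower level. WT held 18.8 and 19.5 CPM under DMSO and 15.0 CPM under ATRi in the *Ccnc* multiplex, where D1, G2 and H5 held 27.4, 24.6 and 20.2 CPM and then 24.9, 20.3 and 18.1 CPM, so that H5 under ATRi fell below the WT libraries under DMSO. In the other multiplex, WT held 18.5, 17.7 and 14.3 CPM, and B9, H4 and C8 held 20.9, 20.8 and 24.1 CPM and then 18.8, 19.2 and 19.7 CPM. The fold was 1.31 in *Ccnc* KO (log2 0.39 ± 0.11 SE, adjusted p = 0.031) and 1.26 in *Cdk8* KO (log2 0.33 ± 0.075 SE, adjusted p = 0.039). With clone as a random effect the call in *Cdk8* KO was lost (adjusted p = 0.19, limma), while that in *Ccnc* KO was kept (adjusted p = 0.048). The remaining 6 genes of lower glycolysis, *Gapdh*, *Pgk1*, *Pgam1*, *Eno1*, *Eno2* and *Pkm*, were not called, and all but *Eno2* share 34.4% to 82.5% of their 50-base words with other genes. *Pgk1*, which makes the first ATP of the pathway, stood at log2 0.21 ± 0.072 SE and 0.22 ± 0.074 SE, *Pkm* at 0.13 ± 0.060 SE and 0.17 ± 0.045 SE and *Pgam1* at 0.11 ± 0.072 SE and 0.082 ± 0.052 SE. Both enolase genes, *Eno1* and *Eno2*, were between -0.027 and 0.083. *Gapdh* varied most among the *Ccnc* KO clones, at 435 CPM in D1 under DMSO against 304 CPM in G2 and 258 CPM in H5, whereas the *Cdk8* KO clones held 255 to 269 CPM.

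**Figure D3:**
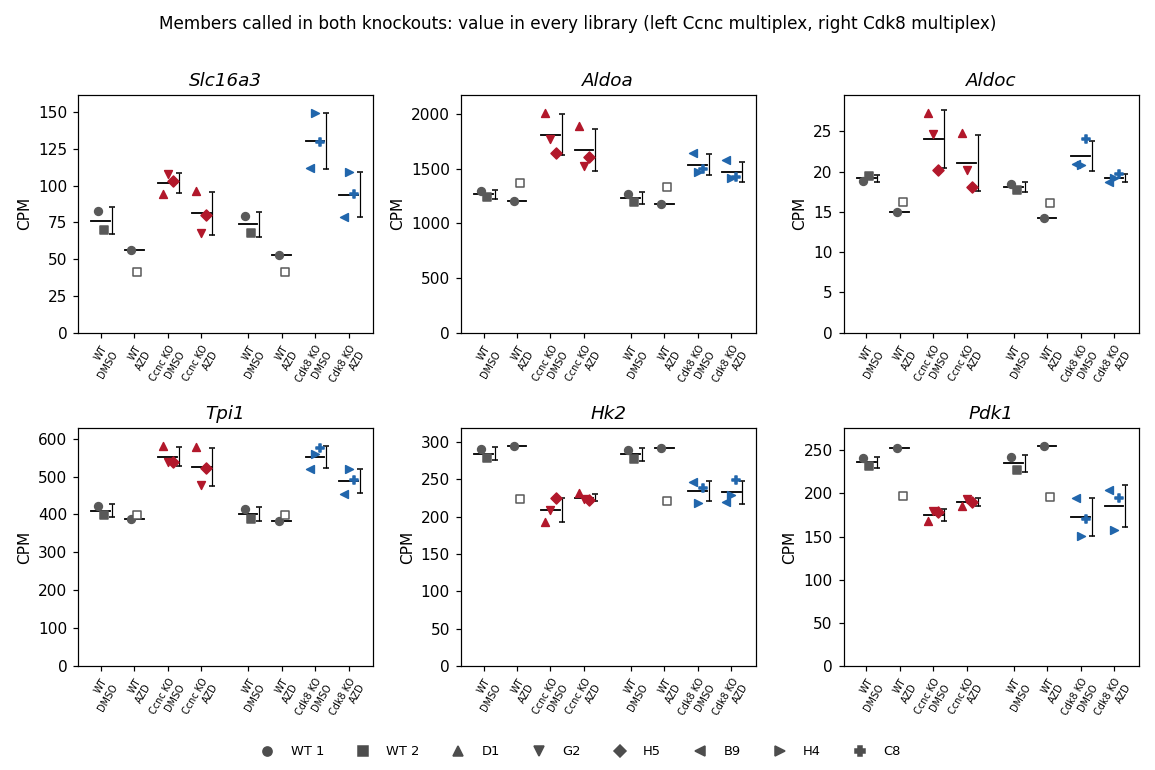
CPM of the 6 members called in both KOs in every library, with the *Ccnc* multiplex on the left of each panel and the *Cdk8* multiplex on the right. Grey marks are WT, red *Ccnc* KO and blue *Cdk8* KO, with a symbol for each line, lines for group means, bars for SD and an open square for the ATRi library of WT 2, which enters no mean. *Aldoa* and *Tpi1* lie above all WT libraries in use and *Hk2* and *Pdk1* below them.

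At the exit of glycolysis, *Pdk1* fell in both KOs. It encodes a pyruvate dehydrogenase kinase, which keeps pyruvate from entering the mitochondrial cycle, and is a known HIF target. WT held 241 and 231 CPM under DMSO and 252 CPM under ATRi in the *Ccnc* multiplex, and D1, G2 and H5 held 168, 180 and 179 CPM and then 185, 194 and 190 CPM. Beside *Cdk8* KO, WT held 242, 228 and 255 CPM, and B9, H4 and C8 held 195, 151 and 171 CPM and then 203, 158 and 195 CPM. No KO library reached a WT library in use, H4 was the lowest of the *Cdk8* KO clones in both treatments, and the ATRi library of WT 2 held 197 and 196 CPM. The fold was 0.749 in *Ccnc* KO (log2 -0.42 ± 0.050 SE, adjusted p = 9.9e-05) and 0.731 in *Cdk8* KO (log2 -0.45 ± 0.091 SE, adjusted p = 0.025). *Ldhb*, the lactate dehydrogenase typical of heart, rose in *Ccnc* KO, from 193 and 171 CPM in WT under DMSO and 188 CPM under ATRi to 222, 250 and 225 CPM and then 228, 252 and 233 CPM (1.27-fold, log2 0.35 ± 0.063 SE, adjusted p = 0.0020). In *Cdk8* KO it stood at log2 0.25 ± 0.081 SE and was not called. *Ldha* was close to the threshold in *Ccnc* KO (log2 0.19 ± 0.060 SE, adjusted p = 0.056) and was not called in *Cdk8* KO (log2 0.19 ± 0.057 SE, adjusted p = 0.088). *Pdk3*, a second kinase of the pyruvate dehydrogenase, was at 0.18 ± 0.067 SE and 0.12 ± 0.062 SE and was not called.

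None of the 7 hypoxia-response genes was called in either KO by the test used here (edgeR with TMM scaling and the filter on low counts), while 3 had an unadjusted p under 0.05 in *Ccnc* KO, as did 4957 of the 18577 genes, and 0 in *Cdk8* KO, where 3995 of 18721 genes did. *Egln1*, an oxygen sensor that marks HIF for degradation, came closest, at log2 -0.21 ± 0.067 SE in *Ccnc* KO (adjusted p = 0.0501). It was called there by DESeq2, by edgeR with DESeq2 size factors, by limma on the deposited rlog values and with the GC and length trend removed. *Vegfa*, the vascular growth factor, was at log2 0.30 ± 0.13 SE and 0.28 ± 0.20 SE. It was called in *Ccnc* KO when every gene with a count was kept or H5 was left out, and in *Cdk8* KO without H4. *Hif1a* itself was at -0.064 ± 0.062 SE and 0.0073 ± 0.038 SE. *Bnip3*, a mitophagy receptor, was at -0.061 ± 0.096 SE and -0.020 ± 0.10 SE, and *Egln3* at -0.11 ± 0.090 SE and -0.084 ± 0.15 SE. *Ankrd37* and *Ndrg1*, used as markers of the response to low oxygen, were between 0.13 and 0.19 in both KOs.

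With clone as a random effect, which takes up that DMSO and ATRi libraries of a line are not independent, *Hk2* and *Aldoc* were no longer called in *Cdk8* KO (4 members, 1.27% of genes), nor was *Pfkm* in *Ccnc* KO (8 members, 10.1% of genes). The *Ccnc* KO count of 9 became 6 without WT 2 or without G2 and 1 without WT 1 (*Pdk1*), and the *Cdk8* KO count of 6 became 0 without WT 1 and 3 without WT 2 or without C8 (*Hk2*, *Slc16a3* and *Tpi1*). With DMSO libraries alone, 5 members were called in *Ccnc* KO, *Aldoa*, *Hk2*, *Pdk1*, *Slc16a3* and *Tpi1*, and 0 in *Cdk8* KO, where only 5 genes were called in all. With all WT libraries included, *Hk2* and *Pdk1* were not called in *Cdk8* KO.

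Set directly against each other, the 2 KOs showed no called member. The log2 difference of *Ccnc* KO minus *Cdk8* KO ran from -0.34 ± 0.16 SE for *Slc16a3* to 0.22 ± 0.16 SE for *Gapdh*, and 1 member, *Slc16a3*, had an unadjusted p under 0.05 (0.048), as did 523 of the 18349 genes. edgeR and DESeq2 both called 0 members here, where each called 1 gene in all (0.00545% of genes). The gene called by edgeR was *Ccnc* itself, at log2 -2.96 ± 0.16 SE. The standard errors leave room for differences of a size like the KO effects themselves. In this fit the WT libraries of both sequencing runs link the multiplexes and count as separate libraries.

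ATRi for 4 h lowered the hypoxia-response genes *Vegfa*, *Bnip3* and *Egln3*, the scarce enolase *Eno2* and the lactate exporter *Slc16a3*, although the calls depended on the fit and on single lines. The most abundant members, *Aldoa* and *Pkm*, were not called. With genotype in the model, 3 members fell in the *Ccnc* multiplex, *Vegfa*, *Bnip3* and *Eno2*, where 1.11% of the 18577 genes were called. In the *Cdk8* multiplex 0 were called by edgeR (0.0855% of genes). At an unadjusted p under 0.05 there were 10 members and 2146 of the 18721 genes, and DESeq2 called 6 members and 381 genes. DMSO and ATRi libraries come in pairs from one line, and with the line as a block 5 members fell beside *Ccnc* KO (2.43% of genes called) and 13 fell and 1 rose beside *Cdk8* KO (11.3% of genes called). The 5 were *Vegfa*, *Bnip3*, *Eno2*, *Slc16a3* and *Egln3*. They were among the 14 of the *Cdk8* multiplex too, which also held *Pfkm*, *Pfkp*, *Pfkl*, *Aldoc*, *Tpi1*, *Pgk1*, *Ldha*, *Slc2a1* and, raised, *Hif1a*. The 2 multiplexes share the WT 1 pair. The block count of 5 in the *Ccnc* multiplex became 2 without WT 1 or without H5 and 1 without G2 (*Vegfa*), that of 14 in the *Cdk8* multiplex became 9 without WT 1, and with both WT pairs included 1 and 5 members were called. Without the block, the count of 3 became 0 without WT 1 or without G2, 1 without H5, 5 without D1 and 0 with all WT libraries. The median log2 change of the members in the block fit was -0.090 beside *Ccnc* KO and -0.12 beside *Cdk8* KO, where the median of all genes was -0.0091 and -0.0054.

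**Figure D4:**
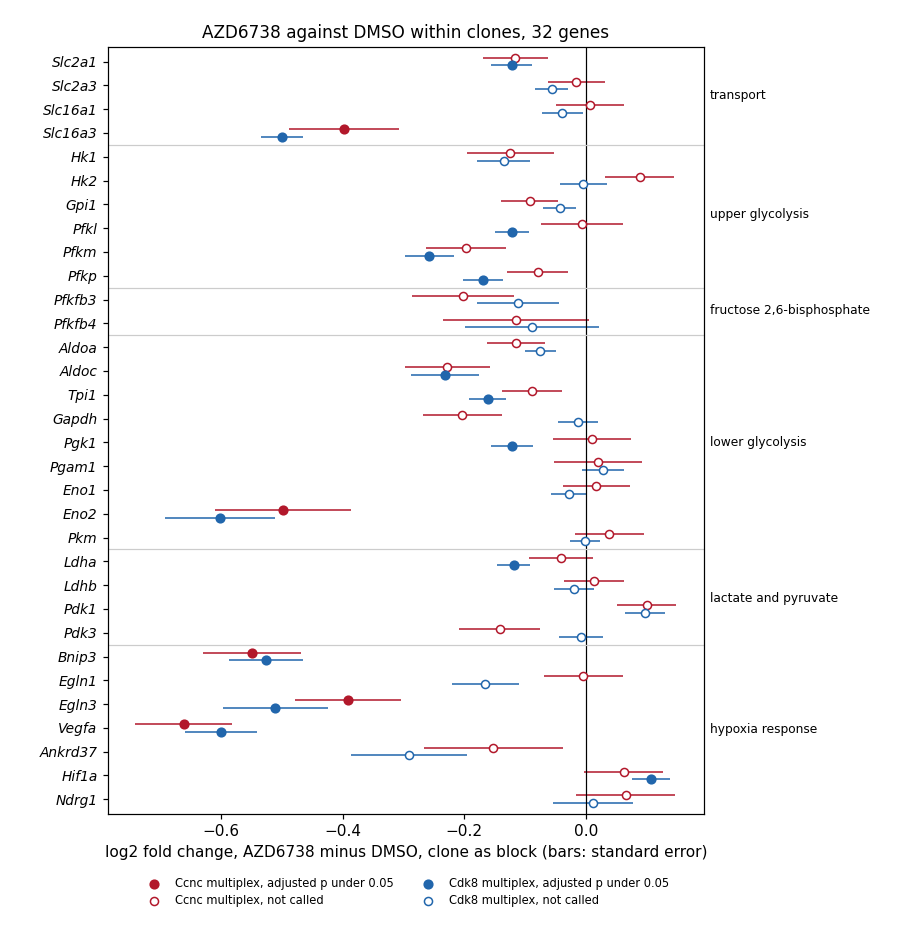
Log2 fold change of each member between ATRi and DMSO (x axis) with the line as a block and bars of 1 standard error, in the *Ccnc* multiplex (red) and the *Cdk8* multiplex (blue). Filled points passed an adjusted p of 0.05. The largest changes, from -0.66 to -0.39, belong to *Vegfa*, *Bnip3*, *Eno2*, *Egln3* and *Slc16a3* in both multiplexes.

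*Vegfa*, which drives blood vessel growth, fell most in the *Ccnc* multiplex. From DMSO to ATRi it went from 22.6 to 12.01 CPM in WT 1, from 27.6 to 19.4 CPM in D1, from 27.2 to 18.4 CPM in G2 and from 20.2 to 12.8 CPM in H5. In the other multiplex, it went from 21.1 to 12.3 CPM in WT 1, from 31.6 to 20.2 CPM in B9, from 17.2 to 12.1 CPM in H4 and from 23.5 to 16.9 CPM in C8. All pairs fell, WT 2 included (ATRi at 0.765 and 0.827 of DMSO), although lines started from different levels. In the *Cdk8* multiplex the treatments overlapped across lines, with H4 under DMSO below B9 under ATRi. The log2 change was -0.66 ± 0.079 SE (adjusted p = 0.0018) and -0.60 ± 0.059 SE (adjusted p = 4.9e-05) in the block fits, and -0.65 ± 0.13 SE (adjusted p = 0.024) and -0.62 ± 0.19 SE (adjusted p = 0.25) without the block. With *Ccnc* KO clones alone *Vegfa* and *Bnip3* were called in the block fit, the only 2 members (0.65% of genes).

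*Bnip3* went from 18.3 to 13.95 CPM in WT 1, from 21.0 to 12.8 CPM in D1, from 17.1 to 10.8 CPM in G2 and from 16.8 to 12.4 CPM in H5. Beside *Cdk8* KO, it went from 19.2 to 14.8 CPM in WT 1, from 22.0 to 13.96 CPM in B9, from 18.1 to 13.3 CPM in H4 and from 18.2 to 11.8 CPM in C8. Every ATRi library in use lay below every DMSO library, but in WT 2 the ATRi to DMSO ratio was 1.007 and 1.09. The log2 change was -0.55 ± 0.081 SE (adjusted p = 0.0068) and -0.53 ± 0.061 SE (adjusted p = 0.00018) in the block fits, and -0.53 ± 0.093 SE (adjusted p = 0.018) and -0.50 ± 0.095 SE (adjusted p = 0.10) without the block. The shared sequence noted above makes its counts uncertain.

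*Eno2* was lower under ATRi in every pair, with ratios of 0.613 in WT 1, 0.861 in D1, 0.689 in G2 and 0.704 in H5. In the *Cdk8* multiplex the ratios were 0.703 in WT 1, 0.645 in B9, 0.599 in H4 and 0.695 in C8, and in WT 2 they were 0.743 and 0.765. Its level was only 3.23 to 5.82 CPM, and the log2 change in the block fits was -0.50 ± 0.11 SE (adjusted p = 0.039) and -0.60 ± 0.090 SE (adjusted p = 0.0010). Without the block it was -0.52 ± 0.11 SE (adjusted p = 0.040, edgeR) and -0.60 ± 0.096 SE (adjusted p = 0.067). *Eno1*, which carries out the same step at a far higher level, was not called, at 0.017 ± 0.055 SE and -0.029 ± 0.028 SE in the block fits.

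*Egln3*, the oxygen sensor most strongly induced by HIF in many tissues, had ratios of 0.799 in WT 1, 0.770 in D1, 0.758 in G2 and 0.727 in H5, and of 0.857 in WT 1, 0.628 in B9, 0.710 in H4 and 0.638 in C8. In WT 2 the ratios were 0.954 and 0.651, from the same libraries sequenced again. The level was only 4.72 to 10.3 CPM, and sequencing a WT library again moved its log2 CPM by up to 0.30. The log2 change in the block fits was -0.39 ± 0.087 SE (adjusted p = 0.038) and -0.51 ± 0.086 SE (adjusted p = 0.0022). Without the block it was -0.38 ± 0.087 SE (adjusted p = 0.051, edgeR) and -0.55 ± 0.14 SE (adjusted p = 0.19), and *Egln3* was not called. Its paralogue *Egln1* stood at -0.0044 ± 0.065 SE and -0.17 ± 0.055 SE in the block fits and was not called.

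*Slc16a3* moved up with the KOs and down with ATRi. The ATRi to DMSO ratio was 0.679 in WT 1, 0.626 in G2 and 0.772 in H5, but 1.02 in D1. In the other multiplex, it was 0.667 in WT 1 and 0.701, 0.728 and 0.731 in B9, H4 and C8, a narrow range, and WT 2 gave 0.596 and 0.605. The log2 change in the block fits was -0.40 ± 0.091 SE (adjusted p = 0.042) and -0.50 ± 0.035 SE (adjusted p = 1.9e-06). Without the block it was -0.36 ± 0.090 SE (adjusted p = 0.065, edgeR) and -0.47 ± 0.11 SE (adjusted p = 0.15), and *Slc16a3* was not called.

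**Figure D5:**
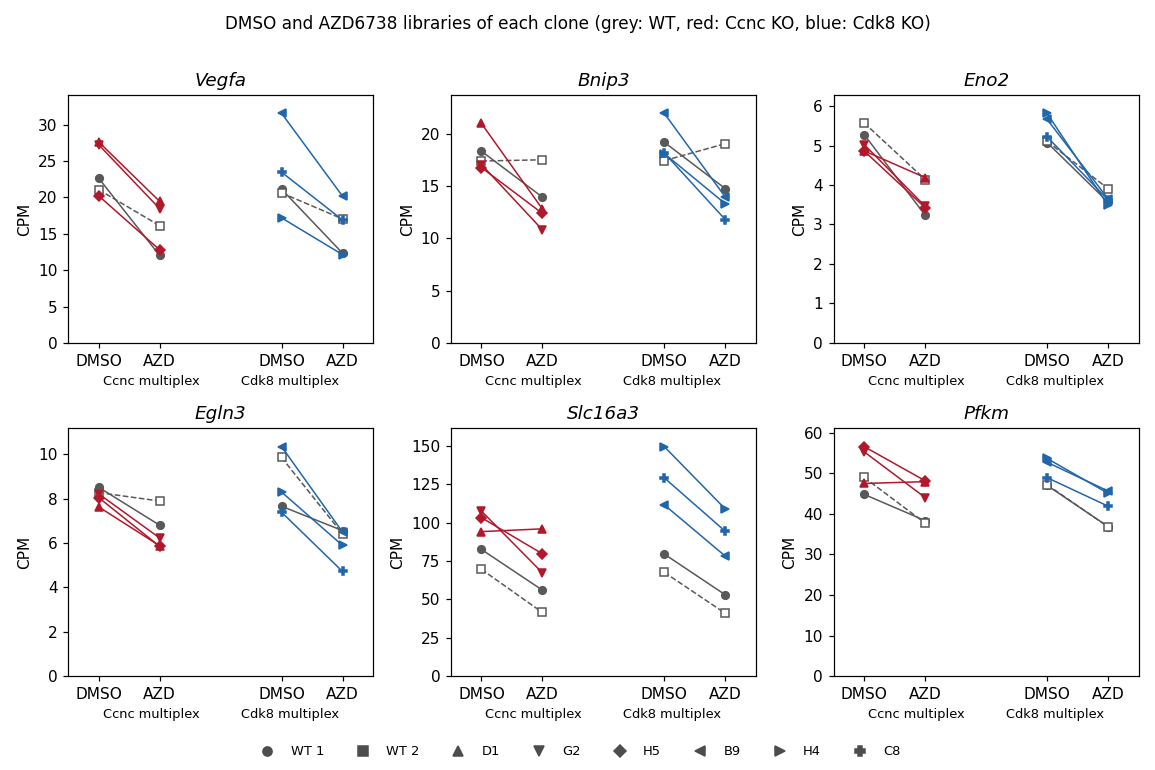
CPM under DMSO and under ATRi (AZD), joined by a line for each WT replicate or clone, for 5 members called with the line as a block in both multiplexes and for *Pfkm*. Grey marks are WT, red *Ccnc* KO and blue *Cdk8* KO, and dashed lines with open squares are WT 2, whose ATRi library was not used. *Vegfa* and *Eno2* fall in every pair, while *Bnip3* does not fall in WT 2 and *Slc16a3* does not fall in D1.

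The other members called in the *Cdk8* multiplex with the block moved less. *Pfkm* changed by -0.26 ± 0.040 SE, and its ratios were 0.784 in WT 1, 0.866 in B9, 0.840 in H4 and 0.856 in C8, where D1 in the other multiplex gave 1.009. *Aldoc* changed by -0.23 ± 0.057 SE and *Pfkp*, *Tpi1*, *Pgk1*, *Ldha*, *Pfkl* and *Slc2a1* by -0.17 to -0.12. *Hif1a*, the oxygen-regulated HIF subunit, changed by 0.11 ± 0.031 SE (adjusted p = 0.037, 4.87% of genes raised) and was higher under ATRi in WT 1 and in all 3 *Cdk8* KO clones. In all, 19 of the 32 members were lower under ATRi in WT 1 and in each of the *Cdk8* KO clones, as were 17.6% of genes, and 10 were lower in WT 1 and each of the *Ccnc* KO clones, as were 14.7% of genes. *Pdk1* was the only member higher under ATRi in WT 1 and every *Ccnc* KO clone (12.2% of genes), and *Pdk1* and *Hif1a* were higher in WT 1 and every *Cdk8* KO clone (15.2% of genes). In the *Cdk8* KO clones alone 11 members were called with the block (6.95% of genes) and 0 without it, where edgeR called 0 of 17162 genes (0%). There, 6 members and 1020 genes had an unadjusted p under 0.05, and DESeq2 called 2 members and 58 genes. Without the block 0 were called in the *Ccnc* KO clones alone too (0.0894% of 16776 genes), where 7 members and 2108 genes had an unadjusted p under 0.05 and DESeq2 called 2 members and 193 genes.

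The response to ATRi was not shown to differ between WT and KO cells for any member. The interaction of genotype and ATRi was called for 0 members in both multiplexes by edgeR and by DESeq2, with 0 members at an unadjusted p under 0.05 in either. Of all genes, 0% were called by edgeR, and 395 of 18577 beside *Ccnc* KO and 255 of 18721 beside *Cdk8* KO had an unadjusted p under 0.05. The log2 difference in response, KO minus WT, ran from -0.26 ± 0.20 SE (*Bnip3*) to 0.31 ± 0.24 SE (*Eno2*) in the *Ccnc* multiplex. Beside *Cdk8* KO, it ran from -0.27 ± 0.20 SE (*Bnip3*) to 0.23 ± 0.25 SE (*Ankrd37*). WT cells entered this test with a single ATRi library, so these errors are as large as many of the ATRi effects.

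Genes around the set were counted on lists written from general knowledge, with earlier results of these data known. The shares of all genes beside them are given for scale and are no test of the lists. Of 20 further glycolysis and gluconeogenesis genes that passed the filter, 4 rose and 1 fell in *Ccnc* KO and 1 rose in *Cdk8* KO, where 7.01%, 5.28% and 2.28% of genes did, with a median log2 fold change of 0.16 and 0.11. With clone as a random effect 3 rose and 1 fell in *Ccnc* KO, and 1 rose in *Cdk8* KO. The largest change in both was that of *Hkdc1*, a hexokinase-like gene, at 2.60 ± 0.47 SE and 3.29 ± 0.31 SE. *Fbp1* and *Fbp2*, which run the phosphofructokinase step in reverse, changed by 1.35 ± 0.27 SE and 0.93 ± 0.15 SE in *Ccnc* KO, and *Slc2a8*, an intracellular glucose transporter, by -0.29 ± 0.087 SE. Of 7 pentose phosphate genes, 1 rose in *Ccnc* KO (*Tkt*, 0.18 ± 0.057 SE) and 0 were called in *Cdk8* KO.

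Other reported HIF targets moved in both directions. In *Ccnc* KO, 9 of 38 rose and 3 fell (7.01% and 5.28% of genes), and in *Cdk8* KO, 8 of 40 rose and 4 fell (2.28% and 2.03% of genes), the latter becoming 3 and 1 with clone as a random effect. The largest in *Ccnc* KO, all raised, were *P4ha2* at 1.30 ± 0.15 SE, *Mt1* at 1.25 ± 0.10 SE, *Mt2* at 1.23 ± 0.11 SE and *Loxl2* at 1.204 ± 0.32 SE. In *Cdk8* KO they were *Adm* at 2.39 ± 0.58 SE (adjusted p = 0.049, edgeR), *Loxl2* at 1.93 ± 0.41 SE, *P4ha2* at 1.79 ± 0.15 SE and *Bhlhe41* at 1.503 ± 0.24 SE. Lowered in both KOs were *Ak4* (-0.50 ± 0.062 SE and -0.69 ± 0.16 SE), *Kdm3a* (-0.30 ± 0.055 SE and -0.41 ± 0.092 SE) and *Kdm4c* (-0.30 ± 0.064 SE and -0.18 ± 0.043 SE). *P4ha2* and *Loxl2* are known for modifying and cross-linking collagen, *Mt1* and *Mt2* for binding metals, *Adm* as a vasodilator hormone and *Bhlhe41* as a circadian repressor. Of 11 genes of the HIF machinery, *Epas1* (HIF-2α) fell in *Ccnc* KO, by 0.47 on the log2 scale (SE 0.074), and 0 were called in *Cdk8* KO.

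Mitochondrial genes were counted in the same way. Of 25 genes of pyruvate oxidation and the TCA cycle, 2 fell in *Ccnc* KO, *Pdk2* (-0.43 ± 0.11 SE) and *Sdhc* (-0.17 ± 0.054 SE), and 1 fell in *Cdk8* KO, *Pdhb* (-0.22 ± 0.044 SE), where 5.28% and 2.03% of genes fell. With clone as a random effect, 1 fell in *Ccnc* KO and 0 in *Cdk8* KO. Of 25 nuclear genes of oxidative phosphorylation 0 were called in either, with medians of 0.059 and -0.039.

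Under ATRi, 4 of the 38 other HIF targets fell in the *Ccnc* multiplex (0.743% of genes), *Vldlr* at -1.85 ± 0.27 SE, *Stc2* at -1.05 ± 0.12 SE, *Car12* at -0.93 ± 0.20 SE and *Hmox1* at -0.27 ± 0.061 SE, and 1 of 40 in the *Cdk8* multiplex (0.0481% of genes), *Stc2* at -0.997 ± 0.11 SE. With the line as a block, 4 fell in the *Ccnc* multiplex (1.46% of genes), and 11 fell and 1 rose in the *Cdk8* multiplex (6.39% of genes lowered). *Vldlr* is a lipoprotein receptor, *Stc2* a secreted glycoprotein, *Car12* a carbonic anhydrase and *Hmox1* the inducible haem oxygenase. Without the block, 0 genes of the further glycolysis, pentose phosphate, TCA cycle, oxidative phosphorylation and HIF machinery lists were called under ATRi in either multiplex. With the block, 1 gene of the HIF machinery rose, 1 fell and 1 gene of the TCA cycle list rose in the *Cdk8* multiplex, and 0 genes of these lists were called in the *Ccnc* multiplex.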

How the data were processed

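Poly(A) RNA from WT, *Ccnc* KO and *Cdk8* KO mESCs was sequenced as single-end reads from strand-marking libraries, in 2 multiplexes of 10 libraries on 2 lanes each. Per the labels and methods, the authors trimmed reads with Trimmomatic 0.38, aligned them to GRCm38.p6 with HISAT2 2.1.0 and made raw counts per gene and lane with featureCounts 2.0.1, with the strand option and duplicate reads ignored. The authors also deposited log2-scale rlog values from DESeq2 (version not given in the sources used here), made in each multiplex apart. Reads shared between gene copies can be lost in such counting.

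Counts were summed over lanes, and 0 columns were left unmapped. Genes were filtered with filterByExpr by genotype and treatment, scaled by TMM and tested in R 4.3.3 with the quasi-likelihood F-test of edgeR 4.0.16, using Benjamini-Hochberg adjustment over all genes and a call at 0.05. Terms were treatment and genotype, their interaction, or, for the direct comparison, multiplex, treatment and genotype. The formula of the study is not given in the sources used here. The ATRi library of WT 2 was left out as in the study. The biological replicates are 2 for WT and 3 clones for each KO, and WT libraries sequenced again are not further replicates. Alternatives used DESeq2 1.42.0, limma 3.58.1, the rlog values, other scalings and filters, all WT libraries, DMSO alone, each replicate left out, and the line as a block. Fits with a trend of GC content and length removed, and block fits with all WT libraries or without single lines, were added after the values were seen.

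Same-numbered DMSO and ATRi libraries come from one line, which pairs them. Their deviations from the group means correlated at 0.24, 0.034 and 0.26 in D1, G2 and H5 and at 0.73, 0.80 and 0.36 in B9, H4 and C8. The block was a fixed term for ATRi and a random effect (limma voom) between genotypes.

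All 32 members are reported, with every library for those called between genotypes and at most 4 called genes for each other list. The HIF targets lowered in both KOs are named in addition. Members and lists were chosen with earlier results of these data known. The scripts were tested on simulated data. Library totals of 30899823 to 67274049 reads set the counting precision. Promoters came from RefSeq on GRCm38.p6.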

Additional observations from a re-analysis of the deposited data

Results flagged for a closer look

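In the *Ccnc* multiplex, the change of *Ldhb* and *Pdk3* under ATRi had one sign in both WT replicates and the other in all 3 *Ccnc* KO clones. The mean log2 change of *Ldhb* was 0.034 in the clones and -0.020 in WT, a difference of 0.054. That of *Pdk3* was -0.20 in the clones and 0.046 in WT, a difference of -0.24. When the same WT libraries were sequenced in the other multiplex, the sign was not kept in WT 2. *Ldhb* stood at -0.029 in WT 1 and 0.11 in WT 2 there, against -0.00094 for WT 2 in the first run, and *Pdk3* at 0.022 and -0.023. These differences, which include the ATRi library of WT 2, were not tested. In the interaction fit without that library, *Pdk3* stood at -0.22 ± 0.13 SE and *Ldhb* at -0.029 ± 0.13 SE, and neither was called.

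*Gapdh* in WT 2 was 1.91 times as high under ATRi as under DMSO, and 1.92 times on sequencing the same libraries again, in a library that the comparisons do not use. In WT 1 it fell from 269 to 246 CPM. Its shared sequence makes this count uncertain, and the cause was not tested. Groups of 2 or 3 samples were too small for a check of single outlying samples.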

How the results depend on the processing

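No called value changed sign under an alternative. The members' median interaction, near 0 and not called (0.0096 and -0.046), and their median in the direct comparison (0.015) changed sign under some. Of the values for single members, 204 kept their call and 63 lost it. Between genotypes, the number of members called in *Ccnc* KO was 9 and became 14 with any gene holding a count and 5 with DMSO alone, and in *Cdk8* KO it was 6 and became 11 with DESeq2 and 0 with DMSO alone. The members' median moved from 0.16 to 0.091 on rlog values and 0.14 with the GC and length trend removed in *Ccnc* KO, and from 0.14 to 0.091 on rlog values in *Cdk8* KO. For ATRi in the *Ccnc* multiplex, 3 became 5 with library totals alone, 6 with any count, 0 with all WT libraries and 5 with DESeq2. In the *Cdk8* multiplex 0 became 1 with library totals alone, with any count or on rlog values, and 6 with DESeq2, and the median of -0.09 became -0.13 with library totals alone, -0.11 with all WT libraries, -0.058 on rlog values and -0.049 with the GC and length trend removed. Within KO clones, 0 became 3 with any count and 2 with DESeq2 in *Ccnc* KO and 2 with DESeq2 in *Cdk8* KO, whose median became -0.13 with library totals alone and -0.064 on rlog values. The median interaction with all WT libraries was 0.090 and 0.011. Apart from the fits on fewer samples or other genes, the cause was not tested.

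With the line as a block, ATRi calls became 5 and 14, or 1 and 5 with all WT libraries, and within KO clones 2 and 11. The *Cdk8* multiplex median became -0.12 in both block fits, and its median interaction 0.015. Between genotypes the random effect gave 8 and 4. The interaction and direct comparison had 0 called members with and without the block.

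Leaving out 1 line gave 1 to 12 members in *Ccnc* KO and 0 to 9 in *Cdk8* KO (medians 0.12 to 0.17 and 0.086 to 0.15). For ATRi it gave 0 to 6 and 0 to 14 (10 in the block fit without H4) (medians -0.10 to -0.049 and -0.12 to -0.073), block fits included. It gave 0 within KO clones (medians -0.10 to -0.036 and -0.10 to -0.070), for the interaction (-0.034 to 0.063 and -0.040 to 0.015) and for the direct comparison (-0.0077 to 0.028). The interaction could not be fitted without WT 1. Every member had 84 reads or more per library, and WT had 2 replicates.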
